A study of Mus musculus with 8 samples.

Results

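The 7 genes described here, Csta, Sprr1a, Sprr2h, Anxa8, Prss22, Ly6d and Sfn, are expressed in stratified or injured epithelium, and several of them encode parts of the cornified envelope. They were matched by gene symbol in an expression table of 34586 symbols, in which every one of the 7 was found. Csta, Sprr2h, Anxa8 and Prss22 had been selected on their measured rise in FPKM after tamoxifen in these same tumors, so their difference between the groups is given as a description, with no test. Sprr1a, Ly6d and Sfn were not picked in that way, and their tests come from a fit across all genes.

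The cornified envelope is a layer of cross-linked protein that replaces the plasma membrane of terminally differentiated squamous cells, as in the epidermis and the esophagus. Transglutaminases build it from precursors that include the small proline-rich (Sprr) proteins and the protease inhibitor stefin A. Some of the same genes are also switched on in simple epithelia, such as that of the gut, after injury or inflammation.

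RNA sequencing had been performed on 8 gastrointestinal stromal tumors (GIST) from the mouse cecum, 4 labelled tamoxifen and 4 labelled vehicle. All tumors, in both groups, carried the activating V558Delta mutation on 1 allele of Kit, together with homozygous floxed Etv1 and homozygous CreERT2 knocked into Rosa26, on a C57BL/6 background. Tamoxifen activates the CreERT2 recombinase, which cuts out floxed sequence, and Rosa26 is active in nearly all cell types, so recombination is not limited to tumor cells. The sources used here give no age, dose or time after treatment. Nothing says that the replicates were separate animals, so the p-values measure only the spread between these samples. The targeted gene Etv1 had 34.9, 19.7, 31.4 and 17.4 FPKM (fragments per kilobase of transcript, scaled to the mapped fragments of the library) in tamoxifen tumors, against 34.6, 51.1, 40.4 and 38.6 FPKM in vehicle tumors, and its difference did not pass the test (limma adjusted p = 0.130). The deposited FPKM give no absolute depth. Between 14176 and 14841 symbols reached 1 FPKM in a library.

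The tumors expressed markers of GIST and of gut epithelium, while most markers of stratified squamous epithelium were near 0. Summed over 10 genes of interstitial cells of Cajal and GIST, levels were 1687 to 2454 FPKM in tamoxifen and 2497 to 3692 FPKM in vehicle tumors (exact permutation test, two-sided, p = 0.0286, the smallest that 4 against 4 allows, but exact p = 0.0857 for the mean of log2 values). The genes of that list did not all fall. Of the 9 tested, 6 had a negative and 3 a positive log2 difference, and limma called 1 higher and 1 lower. Kit was not called (limma adjusted p = 0.0675). Over all genes tested, 2.38% were called higher and 3.07% lower. Summed over 17 genes of simple intestinal epithelium, levels were 2965 to 5823 FPKM in tamoxifen and 1973 to 3092 FPKM in vehicle tumors (exact p = 0.0857). The 13 keratinocyte and squamous markers summed to only 3.85 to 9.64 FPKM in tamoxifen and 4.61 to 5.39 FPKM in vehicle tumors (exact p = 0.314). Krt5, Krt1, Krt6a, Krt13, Krt4, Trp63, Ivl, Dsg3 and Dsc3, which define stratified epithelium, were below 1 FPKM in all 8 tumors. In bulk tissue, fewer cells of a type and less RNA per cell cannot be told apart.

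Levels of 5 of the 7 genes did not overlap between the groups and were higher in tamoxifen tumors, namely Csta, Sprr2h, Anxa8, Prss22 and Sfn. Over all 15023 genes tested, 7.37% were higher with no overlap and 7.74% were lower with no overlap, but the rule picked 4 of the 5, so the count supports nothing. By the limma test 5.45% of all tested genes were called at an adjusted p below 0.05, 2.38% higher and 3.07% lower, and neither Sprr1a, Ly6d nor Sfn was among them. With libraries scaled to the same summed FPKM, 153 genes were called higher and 75 lower, against 358 higher and 461 lower without that scaling. Ly6d stood apart from the other 6 genes, with a mean close to equal in the groups. Among the tamoxifen tumors, replicate 4 had the highest level of 6 of the 7 genes, and Sprr2h was highest in replicate 1. FPKM are per length, so the genes can be ranked within a group. In tamoxifen tumors the order of mean FPKM was Anxa8, Sprr2h, Sfn, Csta, Sprr1a, Prss22 and Ly6d, and in vehicle tumors it was Ly6d, Sfn, Sprr1a, Anxa8, Sprr2h, Csta and Prss22. Every pair of neighbours in either order overlapped in range.

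**Figure D1:**
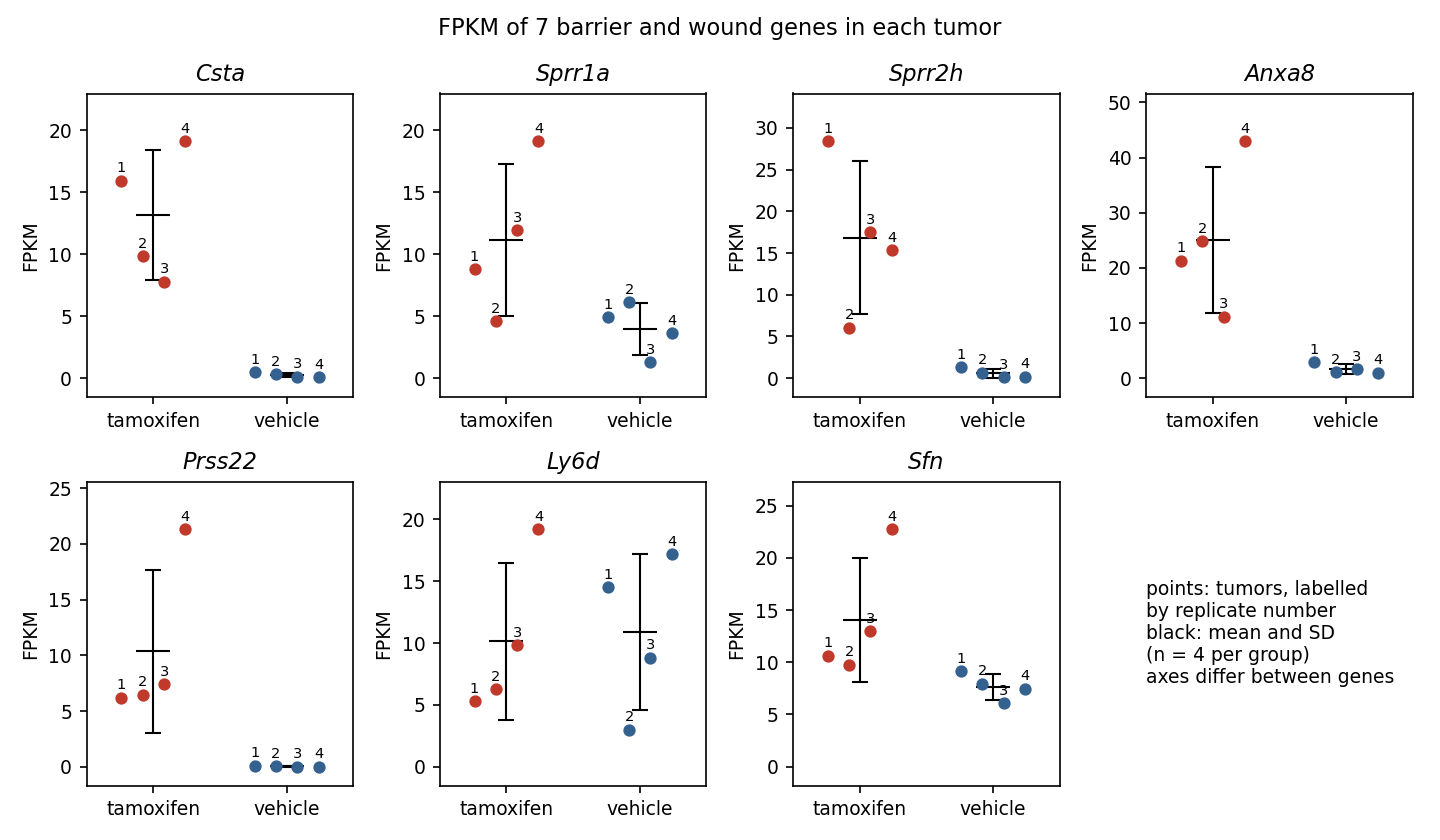
FPKM of each of the 7 genes (one panel each, linear axes that differ) in 4 tamoxifen and 4 vehicle tumors, with points numbered by replicate and black bars for the mean and SD. Csta, Sprr2h, Anxa8, Prss22 and Sfn do not overlap between the groups, Sprr1a overlaps in tamoxifen replicate 2 only, and Ly6d spans the same range in both groups.

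Sprr1a and Sprr2h encode small proline-rich proteins, short precursors that transglutaminases cross-link into the cornified envelope, and both lie in the epidermal differentiation complex on mouse chromosome 3. Sprr1a (ENSMUSG00000050359, mm9 chr3:92287874-92289817) had 8.78, 4.61, 11.9 and 19.1 FPKM in tamoxifen tumors, against 4.90, 6.12, 1.29 and 3.61 FPKM in vehicle tumors. Tamoxifen replicate 2 fell inside the vehicle range and the other 3 tamoxifen tumors were above it. The mean was 11.1 ± 6.13 FPKM with tamoxifen and 3.98 ± 2.07 FPKM with vehicle (SD, n = 4 each), a log2 difference of 1.25 (SE 0.45) on the log2(FPKM + 1) scale that did not pass the limma test (adjusted p = 0.147, unadjusted p = 0.0231). Leaving out 1 tumor at a time gave adjusted p-values of 0.0957 to 0.311 for Sprr1a.

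Sprr2h (ENSMUSG00000046259, mm9 chr3:92189607-92191246) had 28.4, 6.07, 17.5 and 15.4 FPKM in tamoxifen tumors, against 1.36, 0.647, 0.126 and 0.194 FPKM in vehicle tumors. The lowest tamoxifen tumor was well above the highest vehicle tumor. Mean Sprr2h was 16.8 ± 9.19 FPKM with tamoxifen and 0.582 ± 0.567 FPKM with vehicle, a log2 difference of 3.39. Tamoxifen replicate 1 was the highest for Sprr2h and tamoxifen replicate 4 the highest for Sprr1a, so the pair did not rank the tumors alike. None of the 50-base windows of either transcript occurred in a transcript of another gene.

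The 250 bases before the start of both Sprr genes (RefSeq, GRCm38.p6) are shown because each holds an AP-1 motif and a TATA box, both in capitals. AP-1 (Fos and Jun) is known to drive SPRR promoters in human keratinocytes. The first is on the minus strand at chr3:92485882-92486131 and the second on the plus strand at chr3:92385435-92385684, both written 5′ to 3′ along the gene.
Sprr1a: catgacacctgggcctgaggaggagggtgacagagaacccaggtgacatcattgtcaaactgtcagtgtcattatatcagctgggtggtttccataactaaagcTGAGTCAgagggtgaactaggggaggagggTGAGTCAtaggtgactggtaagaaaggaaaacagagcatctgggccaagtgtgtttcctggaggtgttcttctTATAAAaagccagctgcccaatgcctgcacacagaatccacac
Sprr2h: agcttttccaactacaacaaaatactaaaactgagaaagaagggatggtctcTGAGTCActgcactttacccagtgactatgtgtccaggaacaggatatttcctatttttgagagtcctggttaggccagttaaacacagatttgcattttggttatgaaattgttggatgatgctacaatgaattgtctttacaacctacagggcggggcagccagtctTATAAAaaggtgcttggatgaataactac
The AP-1 motif searched was TGANTCA, on both strands, and TGAGTCA was its form in all 3 matches. In Sprr1a it began 146 and 116 bases before the start, and in Sprr2h it began 198 bases before. It was present in 2 of the 5 member promoters found (those of Csta, Sprr1a, Sprr2h, Anxa8 and Sfn), and in 6.75% of 32851 mouse promoters of the same length. The letters TATAAA began 43 bases before the start of Sprr1a and 29 before that of Sprr2h, and occurred in 2 of the 5 against 12.4% of all promoters, on either strand. For the other motifs searched, AGGAAG was in 2 of the 5 (Csta and Sfn) against 29.5% of all, while CCGGAAG and GGAATG were in none of the 5, against 6.91% and 12.6% of all. A match is a run of letters, and binding was not measured here.

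Of the other Sprr genes, Sprr2a3 was the most abundant and rose. It had 478, 288, 360 and 781 FPKM in tamoxifen tumors, against 125, 132, 46.8 and 71.6 FPKM in vehicle tumors, with no overlap. Its log2 difference was 2.35 (limma adjusted p = 0.0178), and the call was lost without vehicle replicate 4 (adjusted p = 0.0573). Sprr2a1, Sprr2a2 and Sprr2a3 are near-identical copies, with 96.3%, 96.5% and 61.1% of their 50-base windows shared with other genes, so reads cannot be assigned among them with certainty, and their sum was 5.07-fold higher with tamoxifen. Sprr2a3 was the only gene called among the 2 tested Sprr genes outside the 7, against 2.38% called higher over all genes tested. The other, Sprr2b, averaged 2.3 FPKM with tamoxifen and 0.681 FPKM with vehicle (adjusted p = 0.0941). Sprr2d was too low to test, at 1.2, 0.611, 2.84 and 1.53 FPKM in tamoxifen tumors against 0.0907, 0, 0 and 0.0388 FPKM in vehicle tumors. In all, 11 of the 16 Sprr genes in the table were below 1 FPKM in every tumor. With no filter on low values limma called 4 Sprr genes outside the 7 higher, Sprr2a3, Sprr2d, Sprr2g and Sprr2k.

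Csta encodes a stefin A, an intracellular inhibitor of cysteine cathepsins that in human skin is also a cornified envelope precursor. Csta (ENSMUSG00000034362, mm9 chr16:36120032-36131327) had 15.95, 9.86, 7.80 and 19.2 FPKM in tamoxifen tumors, against 0.507, 0.326, 0.115 and 0.0839 FPKM in vehicle tumors. Every tamoxifen estimate was far above every vehicle estimate, but the authors' bounds overlapped. Their lower bound was 0.422 FPKM at the least with tamoxifen, and their upper bound was 1.24 FPKM at the most with vehicle. The mean was 13.2 ± 5.27 FPKM with tamoxifen and 0.258 ± 0.198 FPKM with vehicle, a log2 difference of 3.43 and a 51.1-fold ratio of means.

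Mouse chromosome 16 holds a cluster of stefin A genes around Csta, several of which are known from neutrophils. A set of 7 other genes of the cluster, chosen after their values were seen and not the whole cluster, summed to 2.27, 21.7, 4.28 and 27.7 FPKM in tamoxifen tumors, against 0.493, 0.410, 0.323 and 0.429 FPKM in vehicle tumors. Csta was high in tamoxifen replicates 1 and 4 while the sum of these 7 stefins was high in replicates 2 and 4. Neutrophil markers summed to 238, 498, 186 and 494 FPKM in tamoxifen tumors, against 33.6, 22.1, 11.04 and 18.3 FPKM in vehicle tumors (exact p = 0.0286, the smallest possible). Of the 14, 8 were tested and limma called 4 higher (Ly6g, S100a8, S100a9 and Retnlg). Over all genes tested, 2.38% were called higher and 3.07% lower, but the neutrophil and stefin lists were chosen with earlier results known. Csf3r, Fpr1, Itgam and Mmp8 were tested and not called (limma adjusted p = 0.86, 0.298, 0.240 and 0.176). The Retnlg call (adjusted p = 0.0473) held in 1 of the 8 fits that leave out 1 tumor, that without tamoxifen replicate 1. Of the granule genes, Mpo and Elane were below 1 FPKM in every tumor, while Ngp reached 4.21, Ltf 3.20, Camp 1.98 and Mmp8 4.53 FPKM in tamoxifen tumors and all 4 stayed below 1 FPKM in vehicle tumors. The part of neutrophil RNA in the Csta level was not tested. Only 0.805% of the 50-base windows of Csta were shared with another gene. Of the 7 tested stefins and cystatins other than Csta, 0 were called higher by limma and 1, Cst7, a leukocyte cystatin, fell to 4.75 ± 0.401 FPKM with tamoxifen, against 8.91 ± 1.86 FPKM with vehicle (log2 difference -0.77, adjusted p = 0.0335). The Cst7 call held in 2 of the 8 fits that leave out 1 tumor, those without tamoxifen replicate 4 or vehicle replicate 3, and was lost with total scaling (adjusted p = 0.155). The median log2 difference of the 7 was 1.51, and 5 of them were higher at an unadjusted p below 0.05. With libraries weighted by quality limma called 4 of the 7 higher, BC100530, Gm5483, Stfa2 and Stfa2l1, and with a pseudocount of 0.1 FPKM it called 3, the same genes without Stfa2.

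**Figure D2:**
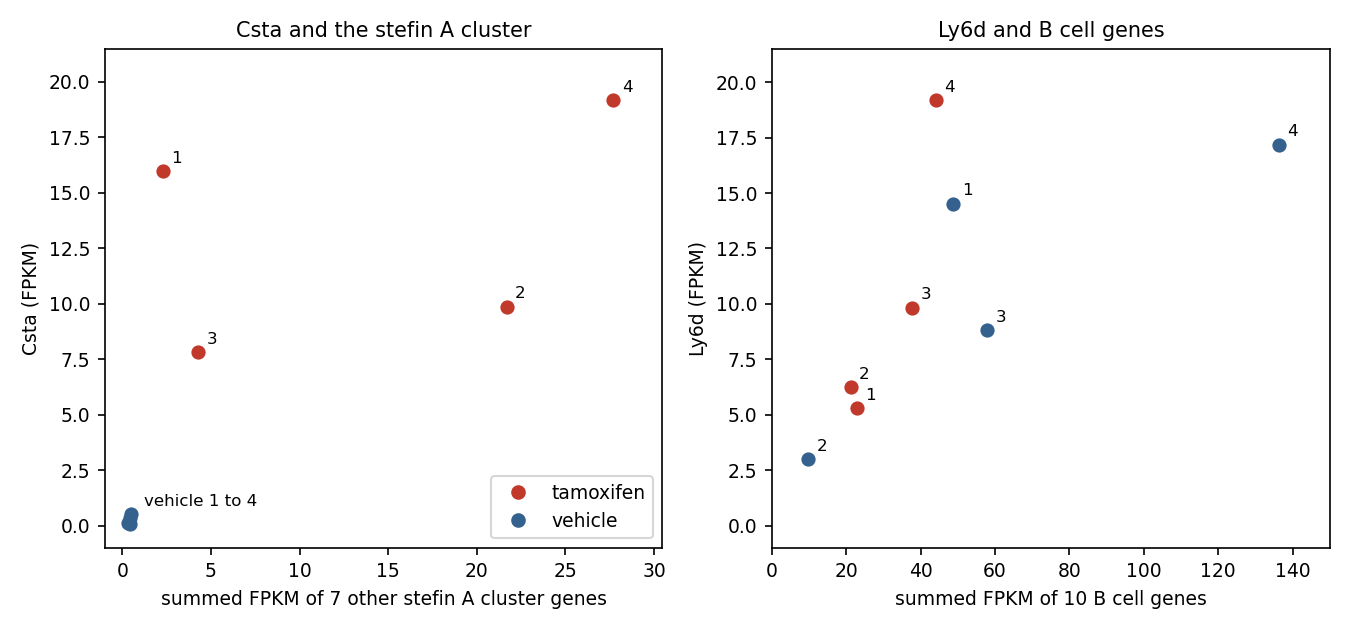
Left, Csta FPKM against the summed FPKM of 7 other stefin A cluster genes, and right, Ly6d FPKM against the summed FPKM of 10 B cell genes, in tamoxifen and vehicle tumors numbered by replicate. Tamoxifen replicate 1 has high Csta (15.95 FPKM) with a low stefin sum (2.27 FPKM), and the tumor lowest in B cell genes (9.68 FPKM, vehicle replicate 2) is also the lowest in Ly6d (2.99 FPKM).

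Prss22 encodes tryptase epsilon, a secreted serine protease known from airway epithelium. Prss22 (ENSMUSG00000045027, mm9 chr17:24130502-24135067) had 6.20, 6.48, 7.43 and 21.3 FPKM in tamoxifen tumors, against 0.0983 and 0.0636 FPKM in vehicle replicates 1 and 2 and a listed 0 in vehicle replicates 3 and 4. Of the 7 genes it was the lowest in vehicle tumors, and its log2 difference was 3.27. It was the only one of the 7 for which the authors' lower bound in every tamoxifen tumor (2.12 FPKM at the least) was above their upper bound in every vehicle tumor (0.185 FPKM at the most). The level of those bounds is not stated. Among 13 other tested epithelial serine proteases and their inhibitors, limma called 0, with 2 higher and 1 lower at an unadjusted p below 0.05. With no filter on low values Prss27 was called higher. With libraries scaled to the same sum of epithelial markers Klk8 was called lower. The inhibitor Spint2 averaged 233 FPKM with tamoxifen and 258 FPKM with vehicle, and the whey acidic protein family member Wfdc2 averaged 76.6 FPKM with tamoxifen and 254 FPKM with vehicle (adjusted p = 0.32).

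Anxa8 encodes a calcium-dependent phospholipid-binding annexin found in stratified epithelia. Anxa8 (ENSMUSG00000021950, mm9 chr14:34899167-34913757) had 21.3, 24.8, 11.2 and 43.0 FPKM in tamoxifen tumors, against 2.86, 1.07, 1.62 and 1.01 FPKM in vehicle tumors. The groups did not overlap, and the highest and lowest tamoxifen tumors, replicates 4 and 3, were far apart. The mean was 25.1 ± 13.3 FPKM with tamoxifen and 1.64 ± 0.861 FPKM with vehicle, a log2 difference of 3.21. Of the 9 other tested annexins, Anxa1 and Anxa2 rose, and the other 7 were not called. At an unadjusted p below 0.05, 3 of the 9 were higher and 2 lower. Over all genes tested 2.38% were called higher, but the annexin list was chosen with earlier results known. Anxa1, which in leukocytes and epithelium limits inflammation, averaged 178 ± 65.3 FPKM with tamoxifen and 41.2 ± 7.12 FPKM with vehicle (log2 difference 1.99, limma adjusted p = 0.0153). Anxa2, a plasminogen receptor subunit, averaged 412 ± 188 FPKM with tamoxifen and 113 ± 24.8 FPKM with vehicle (log2 difference 1.78, adjusted p = 0.0175), and its call was lost without vehicle replicate 2 or vehicle replicate 3.

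Ly6d encodes a small surface protein anchored by glycosylphosphatidylinositol, known from keratinocytes and, in mouse, from early B lineage cells. Ly6d (ENSMUSG00000034634, mm9 chr15:74592486-74593997) had 5.28, 6.26, 9.84 and 19.2 FPKM in tamoxifen tumors, against 14.5, 2.99, 8.83 and 17.2 FPKM in vehicle tumors. The ranges overlapped almost entirely. The mean was 10.1 ± 6.34 FPKM with tamoxifen and 10.9 ± 6.31 FPKM with vehicle, a log2 difference of -0.04 (SE 0.53, limma adjusted p = 0.975). A list of 10 B cell genes, added after the values were seen, summed to 22.8, 21.1, 37.7 and 44.2 FPKM in tamoxifen tumors, against 48.8, 9.68, 57.9 and 136 FPKM in vehicle tumors. Ly6d and that sum were both highest in replicate 4 and lowest in replicate 2 among vehicle tumors, and of the 9 B cell genes tested 0 were called by limma. The gene whose profile over the 8 tumors was nearest to that of Ly6d was Vpreb3, a surrogate light chain gene of B cells (root-mean-square difference 0.317 between log2 profiles centred on their means). The transcription factor gene Foxf2 (0.408) and the T cell receptor segment Trbv13-1 (0.420) came next, so the nearest profiles were not all of B cell genes.

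Of the 15 other tested genes of the Ly6 and uPAR family, 4 rose (Ly6g, Plaur, Gpihbp1 and Ly6c1) and 1 fell (Ly6e), and the median log2 difference was 0.18 against 0.01 over all genes tested. Shares over all genes tested were 2.38% called higher and 3.07% lower. Ly6g, a neutrophil surface marker, averaged 147 FPKM with tamoxifen and 1.96 FPKM with vehicle. Plaur, the urokinase receptor, averaged 13.0 FPKM with tamoxifen and 2.50 FPKM with vehicle (log2 difference 2.02, limma adjusted p = 0.00225). Without vehicle replicate 2 or vehicle replicate 3 the number called higher was 2. Ly6e, 191 kilobases from Ly6d on chromosome 15, fell to 874 FPKM with tamoxifen, against 1759 FPKM with vehicle (log2 difference -1.03, adjusted p = 0.0239). Its call was lost without tamoxifen replicate 2 or any single vehicle tumor, and with total scaling (adjusted p = 0.137).

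Sfn encodes 14-3-3 sigma, an adaptor protein of stratified and glandular epithelium that in human cells is a p53 target. Sfn (ENSMUSG00000047281, mm9 chr4:133156471-133158083) had 10.6, 9.78, 13.0 and 22.7 FPKM in tamoxifen tumors, against 9.14, 7.95, 6.08 and 7.47 FPKM in vehicle tumors. The groups did not overlap, but tamoxifen replicate 2 lay close to vehicle replicate 1. The mean was 14.04 ± 5.95 FPKM with tamoxifen and 7.66 ± 1.26 FPKM with vehicle, a log2 difference of 0.73 (SE 0.25) that did not pass the limma test (adjusted p = 0.127, unadjusted p = 0.0174). Leaving out 1 tumor at a time gave adjusted p-values of 0.120 to 0.292. Of its 50-base windows 15.0% were shared with other genes, among them the pseudogenes Gm7850 and Gm5279. The other 6 genes of the 14-3-3 family had a median log2 difference of -0.13 and none was called. Ywhae averaged 174 FPKM with tamoxifen and 193 FPKM with vehicle, and Ywhab 124 FPKM with tamoxifen and 127 FPKM with vehicle.

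Of 18 tested p53 targets, 4 rose, namely Plk2, Gdf15, Perp and Cdkn1a, with a median log2 difference of 0.26 over the list. The share called higher over all tested genes was 2.38%, but this list too was chosen with earlier results known. Cdkn1a, the cell cycle inhibitor p21, averaged 51.6 FPKM with tamoxifen and 27.2 FPKM with vehicle (log2 difference 0.86, limma adjusted p = 0.0483), a call that held without tamoxifen replicate 2 or 4 and in no other fit that leaves out 1 tumor. Plk2, a stress-induced kinase, had a log2 difference of 1.33 (adjusted p = 0.0143). With total scaling or no filter on low values 2 were called. The number called fell to 1 without tamoxifen replicate 1, or without vehicle replicate 2, 3 or 4.

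Most of the rest of the squamous programme was low or not called. Of 37 other cornified envelope precursors and cross-linking enzymes in the table, 21 were listed at 0 in every tumor and 31 were below 1 FPKM in every tumor, and of the 2 tested limma called 0. Sbsn, a secreted suprabasal protein, averaged 2.26 FPKM with tamoxifen and 0.741 FPKM with vehicle (adjusted p = 0.059). Dmkn, dermokine, averaged 2.08 FPKM with tamoxifen and 1.48 FPKM with vehicle (adjusted p = 0.629). Among those too low to test, Asprv1 averaged 1.57 FPKM with tamoxifen and 0.396 FPKM with vehicle. Ppl averaged 1.00 FPKM with tamoxifen and 0.417 FPKM with vehicle, and Tgm5 averaged 0.438 FPKM with tamoxifen and 0.152 FPKM with vehicle. Lor went the other way, at 0.331 FPKM with tamoxifen and 0.947 FPKM with vehicle. Asprv1, Ppl, Tgm5 and Lor did not overlap between the groups. Of 15 squamous and basal keratins, 13 stayed below 1 FPKM in every tumor and the 1 tested, Krt10, was not called. Krt13, among the low ones, averaged 0.326 FPKM with tamoxifen and 0.0128 FPKM with vehicle, with no overlap. With no filter on low values 3 were called higher by limma, Krt5, Krt6a and Krt15, at mean levels of 0.191, 0.0582 and 0.317 FPKM with tamoxifen and 0.0231, 0.00552 and 0.0214 FPKM with vehicle. Among 13 tested squamous transcription factors, limma called 0 higher and 1 lower, against 3 higher at an unadjusted p below 0.05. Zfp750, which was too low to test, averaged 1.27 FPKM with tamoxifen and 0.270 FPKM with vehicle, with no overlap. Hopx, a homeodomain-only cofactor expressed in keratinocytes and gut epithelium, fell to 12.5 ± 2.93 FPKM with tamoxifen, against 35.9 ± 7.76 FPKM with vehicle (log2 difference -1.46, adjusted p = 0.0103). Of 8 tested desmosome genes, which fasten epithelial cells to each other, 1 rose. Over all genes tested, 2.38% were called higher and 3.07% lower, but these lists were chosen with earlier results known. Perp, a tetraspan protein that is also a p53 target, averaged 69.1 ± 24.4 FPKM with tamoxifen and 25.5 ± 6.84 FPKM with vehicle (log2 difference 1.37, adjusted p = 0.0335). Its call held in 1 of the 8 fits that leave out 1 tumor, that without tamoxifen replicate 3.

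**Figure D3:**
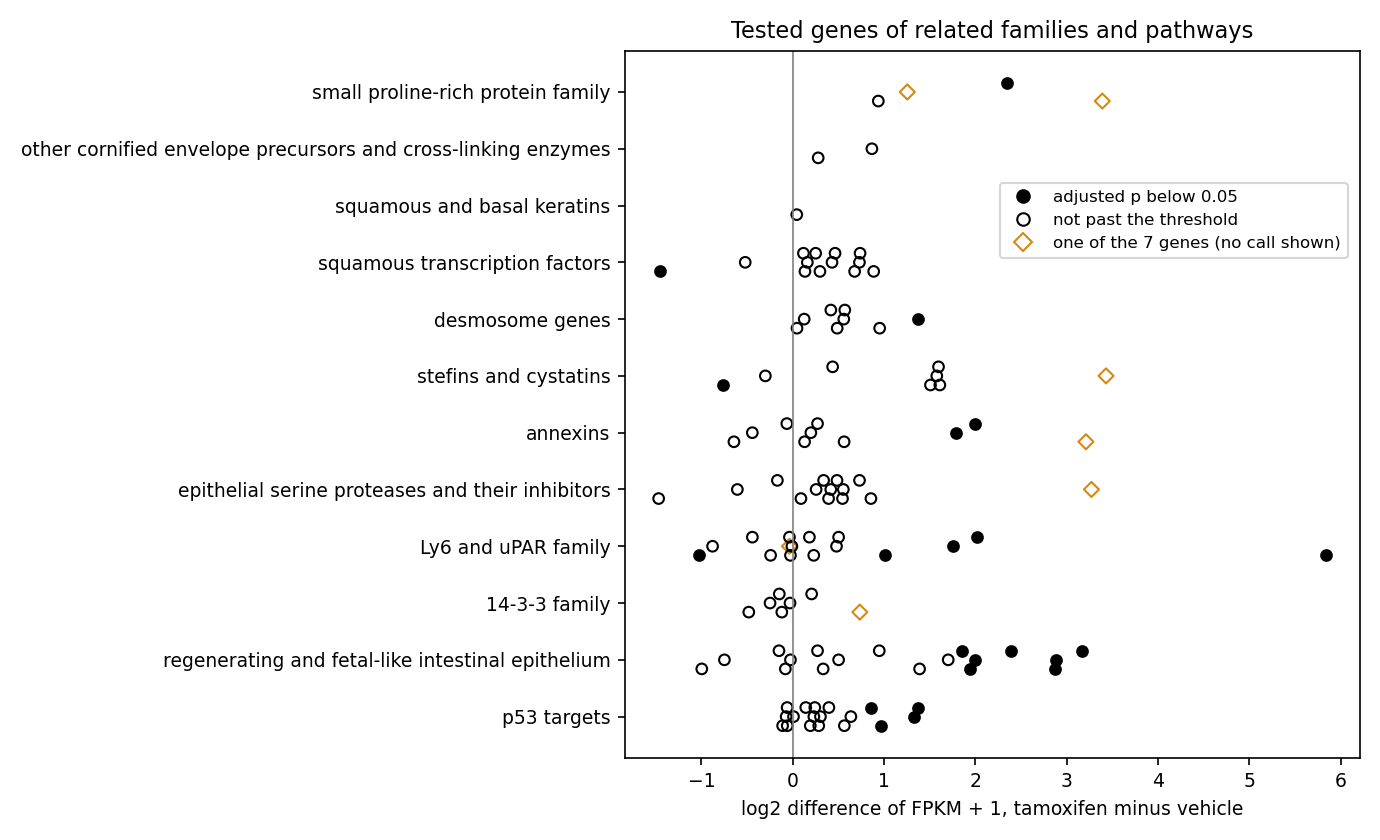
Log2 difference of FPKM + 1, tamoxifen minus vehicle, for each tested gene (circles, filled where the limma adjusted p is below 0.05) in 12 lists of related genes, with the 7 genes as diamonds. Csta, Sprr2h, Anxa8 and Prss22 lie between 3.21 and 3.43, having been chosen for a rise in these same values, while most genes of the squamous transcription factor and 14-3-3 lists lie within 1 of zero.

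Genes of regenerating and fetal-like gut epithelium, known to reappear after injury in mouse intestine, included several that rose. Of 18 tested, 7 rose, Areg, Cldn4 and Il1rn among them, and the median log2 difference of the list was 1.17. Over all tested genes 2.38% were called higher, but the list was chosen with earlier results of these data known. The other 11 were not called, among them Ly6a, Clu, Msln, Anxa3 and Ctgf (limma adjusted p = 0.961, 0.519, 0.902, 0.463 and 0.858). Cldn4, a tight junction claudin, averaged 52.6 ± 27.3 FPKM with tamoxifen and 6.13 ± 2.92 FPKM with vehicle (log2 difference 2.87, adjusted p = 0.00765). Il1rn, the interleukin-1 receptor antagonist, averaged 34.8 ± 13.8 FPKM with tamoxifen and 3.66 ± 1.33 FPKM with vehicle (log2 difference 2.88, adjusted p = 0.00782). Between 7 and 8 genes of this list were called whichever tumor was left out.

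Areg, an epidermal growth factor receptor ligand that averaged 28.4 FPKM with tamoxifen and 2.11 FPKM with vehicle, was nearest to Csta (root-mean-square difference 0.263) and to Anxa8 (0.348). S100a14, an epithelial calcium-binding protein, was nearest to Prss22 (0.336), and Csta was nearest to Sprr2h (0.531). Smagp, a membrane glycoprotein of epithelium, was nearest to Sfn (0.0853), and Pglyrp1, an antibacterial protein, was nearest to Sprr1a (0.268). These are likenesses over tumors that share the same grouping and carry no test.

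Genes beside the 7 on the chromosome mostly stayed uncalled. Within 250 kilobases of Anxa8, Prss22 and Sfn, 0 of 4, 0 of 15 and 0 of 12 tested neighbours were called by limma. Of the 4 tested near Sprr1a, Sprr2a3 was called higher. Sprr2h is also among these 4, but it was picked for its rise, so its call is not counted. Over all genes tested, 2.38% were called higher and 3.07% lower. Near Csta 0 of 11 were called higher and 2, Dtx3l and Parp14, lower. Near Ly6d 1 of 6 was called higher, 2010109I03Rik, which averaged 30.4 FPKM with tamoxifen and 2.23 FPKM with vehicle (log2 difference 3.15, adjusted p = 0.0111), and 1 of 6 was called lower, Ly6e.

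The mean sum of the simple-epithelium markers was 1.59-fold higher with tamoxifen, but the sums overlapped and the difference did not pass the exact test (p = 0.0857). Of the 17 markers limma called 1 higher, Krt18, against 2.38% of all genes tested, and 4 (Slc26a3, Cdx1, Fabp2 and Tff3) had a negative log2 difference. The Krt18 call (adjusted p = 0.0391) held in 2 of the 8 fits that leave out 1 tumor, those without tamoxifen replicate 3 or 4. After scaling each library to the same sum of these markers, a step added after seeing the data, the log2 difference was 3.14 for Csta, 3.07 for Sprr2h, 2.73 for Anxa8 and 3.05 for Prss22. These 4 were picked for a rise far above that 1.59-fold, so a large remaining difference was fixed in advance and supports nothing. On that scale Sfn had a log2 difference of 0.16 (limma adjusted p = 0.646), and its ranges overlapped, at 7.26 to 15.5 in tamoxifen and 9.09 to 10.9 in vehicle tumors. Sprr1a had a log2 difference of 0.75 (adjusted p = 0.173) and Ly6d of -0.60 (adjusted p = 0.352). With this scaling 7 of the regenerating epithelium genes and 0 of the p53 targets were called higher. Far fewer of all tested genes were called higher on that scale than the 358 without it. Both lists were also chosen with earlier results known, so these counts support no contrast between them. The 8 mesothelium markers summed to 508 to 1136 FPKM in tamoxifen and 252 to 374 FPKM in vehicle tumors (exact p = 0.0286, but 0.171 for the mean of log2 values), with 0 of the 8 called. Most of that sum was Krt8 and Krt19, which are on the epithelium list too. The 6 other mesothelium markers summed to 8.16 to 24.5 FPKM in tamoxifen and 11.1 to 20.5 FPKM in vehicle tumors, and overlapped.

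**Figure D4:**
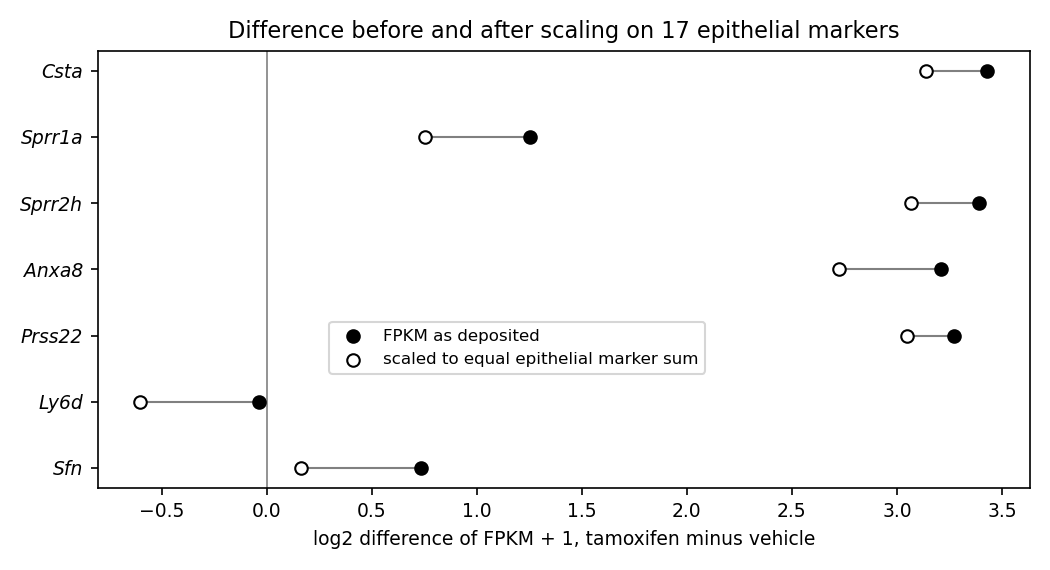
Log2 difference of FPKM + 1, tamoxifen minus vehicle, for the 7 genes with FPKM as deposited (filled) and after scaling each tumor to the same sum of 17 simple-epithelium markers (open). After scaling, Sfn is at 0.16 and Ly6d at -0.60. The 4 picked genes are at 2.73 or above, having been chosen for a large rise in these same values.

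The numbers in the sample identifiers fall into a lower and an upper range, each holding tumors of both groups. Within the lower range (2 tamoxifen and 3 vehicle tumors) the log2 difference was 3.38 for Csta, 3.14 for Sprr2h, 3.12 for Anxa8 and 2.80 for Prss22, and within the upper range (2 tamoxifen tumors and 1 vehicle tumor) it was 3.62, 3.87, 3.53 and 3.78 for the same genes. These genes were picked for their rise and did not overlap between the groups, so a positive difference in each range was fixed in advance. For Sprr1a the log2 difference was 0.69 in the lower and 1.81 in the upper range, for Sfn 0.38 and 1.11, and for Ly6d -0.33 and -0.30.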

How the data were processed

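Per the submitters' processing notes, reads were handled with STAR 2.3, Cufflinks and Cuffdiff on mm9. The authors deposited 1 table of FPKM per gene and sample with lower and upper bounds. Its 37980 rows were summed per symbol, and 178 values that failed estimation were treated as missing. The 7 genes and the gene lists were chosen with earlier results of these data known, and the genes named from a list were those past the threshold, at most 4 in each direction, or the 2 with the highest mean where none passed. Other list genes, such as Sprr2b, Sprr2d, the low squamous markers and further regenerating epithelium genes, were named after their values were seen. Symbols with a mean of at least 1 FPKM and 2 or more estimates per group (15023) entered a linear model in limma 3.58.1 under R 4.3.3 (trended empirical Bayes on log2(FPKM + 1), Benjamini-Hochberg adjustment over all of them, threshold 0.05); the pseudocount of 1 understates changes of low genes. The fit was tested on simulated data. Marker sums were compared by exact permutation (SciPy 1.17.1). Equal replicate numbers did not pair the samples, so the fit has no replicate block. Alternatives covered the pseudocount, the filter, the scaling, the block and each tumor left out. Coordinates are mm9 as deposited, while promoters are GRCm38.p6. Absolute depth is unknown; relative depth read from the low FPKM steps was 0.824 to 1.16 of vehicle replicate 1. A gene of the regenerating epithelium list is not reported here by name.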

Additional observations from a re-analysis of the deposited data

Results flagged for a closer look

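Prss22 in tamoxifen replicate 4 measured 21.3 FPKM, far above the other tamoxifen tumors at 6.20, 6.48 and 7.43 FPKM. Its gap to the nearest tumor was 0.919 of the whole range of the group, above Dixon's 95% critical value for 4 samples. It was 1 of 14 groups of 4 examined, and chance flags about 1 in 20 such groups. Replicate 4 also had the highest level of Csta, Sprr1a, Anxa8, Ly6d and Sfn among the tamoxifen tumors.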

How the results depend on the processing

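As reported, 819 genes were called, 358 higher and 461 lower with tamoxifen. A mean of at least 5 FPKM left 534 called (207 higher), scaling on the summed FPKM left 228 (153 higher, 75 lower), and scaling on the epithelial markers called 75 higher and 827 lower. With replicate numbers as a block, 252 were called (113 higher, 139 lower), but same-numbered samples correlated at -0.156 to 0.145 and 1 of 4 matched its own number best. The counts over fits that leave out 1 tumor were 268 to 856 in all (268 without vehicle replicate 3), 103 to 420 higher and 160 to 436 lower. The log2 difference of Ly6d changed sign, at 0.016 with total scaling and -0.49 to 0.24 with 1 tumor left out. Over the same left-out fits it was 0.92 to 1.57 for Sprr1a and 0.49 to 0.87 for Sfn. Marker sums with 1 tumor left out can reach no p below 0.0571, and the tamoxifen minus vehicle difference in FPKM was -1364 to -966 for GIST, 194 to 403 for mesothelium, 285 to 389 for neutrophils, 1106 to 2059 for simple epithelium and 0.297 to 2.23 for keratinocytes. As means of log2 values, mesothelium differed by 0.39 (exact p = 0.171) and GIST by -0.32 (exact p = 0.0857). A smaller pseudocount of 0.1 gave log2 differences of 5.29 for Csta, 4.83 for Sprr2h and 6.07 for Prss22. The causes of these changes were not tested. Low FPKM without counts limit what can be said of the genes near 0 in vehicle tumors.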
